A study of Mus musculus with 6 samples.

Results

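Semaphorins, plexins and neuropilins form a ligand and receptor system first known for steering axons. Semaphorins are secreted or membrane-bound ligands built around a conserved sema domain, and plexins are their receptors, whose cytoplasmic part acts on small GTPases and so on adhesion and the cytoskeleton. The neuropilins Nrp1 and Nrp2 are co-receptors for secreted semaphorins and also bind vascular endothelial growth factors. In the kidney the system is known for roles in ureteric bud branching, podocytes and the repair of tubules.

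The set holds 20 semaphorins, 9 plexins and 2 neuropilins, 31 of the 49671 genes counted. Its members were chosen by family name and matched by Ensembl identifier, with no threshold on a measured value. The set itself was selected on the strength of the levels and Cre over Flp ratios in these libraries, so the ratios and tests below describe these genes and support nothing beyond that. The RNA was that of mouse iRECs, renal epithelial cells induced from fibroblasts by transcription factors and here grown to confluence. All cells were of the strain B6.129S4-Pkd1tm2Ggg/J, with floxed alleles of Pkd1, the gene of polycystin-1. For each of 3 cell clones, numbered 4, 7 and 21, a Cre-transduced culture labelled Pkd1 -/- was set against a Flp-transduced culture of that clone labelled Pkd1 fl/fl, which gave 6 libraries, 3 per group. Each clone gave a single culture per recombinase, and the labels do not tie clones to animals. The p-values therefore reflect the spread of these clone pairs alone.

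Total counts ranged from 25196120 to 46918341 reads per library, with more reads in Cre than in Flp for clones 4 and 21 and fewer for clone 7. Pkd1 stood at 145, 105 and 117 CPM (read counts scaled to library depth) in Cre of clones 4, 7 and 21 and at 198, 229 and 166 CPM in Flp, a lower Cre value in each clone. Its adjusted p was 0.6065 in edgeR, and the authors' deposited table lists 0.0370 for it. Over whole profiles the Flp library of clone 7 correlated at 0.983 with Cre of clone 4 and at 0.970 with its own Cre library, whereas in deviations from the group means it correlated best with its own, at 0.11. Among renal epithelial markers, Cdh16 had a mean of 817 CPM, Cdh1 of 673 CPM and Epcam of 212 CPM over the 6 libraries. Of 7 endothelial markers, 4 (Cdh5, Kdr, Emcn and Cldn5) were at 0 in every library and the list summed to 2.57 to 5.27 CPM in Cre and 2.66 to 4.54 CPM in Flp. The 8 fibroblast markers summed to 8.94 to 13.9 CPM in Cre and 4.65 to 29.4 CPM in Flp, with Thy1 at 0. The 7 neural and glial markers summed to 5.62 to 7.61 CPM in Cre and 4.56 to 9.19 CPM in Flp, with Map2 at 0. The 7 immune markers summed to 193 to 299 CPM in Cre and 118 to 204 CPM in Flp, nearly all of it Csf1r, with Adgre1 at 0. The part of these markers in the results was not tested.

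The first question was which members these cells transcribe. A mean of at least 1 CPM was reached by 23 of the 31 members, and each of those 23 also had at least 1 CPM in every library. On the scale of CPM per kilobase of exon, which allows levels of genes to be compared, Plxnb2 was the highest at 151 ± 15.8 (SD, n = 6 libraries), followed by Plxna1 at 44.8 ± 10.2 (SD, n = 6). Plxnb2 is a receptor for the class 4 semaphorins Sema4c and Sema4d. Plxnb2 lay above every other member in all 6 libraries. Plxna1 lay above every member below it except Sema3c, which reached 37.3 CPM per kilobase in Cre of clone 7, where Plxna1 was at 35.1. From Sema4d downward each member overlapped with the next, so the order of close neighbours was not resolved. Sema4d, a membrane-bound ligand of B plexins, had the highest mean of the ligands at 23.0 ± 2.90 CPM per kilobase, followed by Sema7a, which is tethered to the membrane by a lipid anchor, at 19.9 ± 4.12 CPM per kilobase (SD, n = 6). Sema3c was above Sema4d in Cre of clones 7 and 21, and with the longest transcript as length Sema4g ranked above Sema7a.

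**Figure D1:**
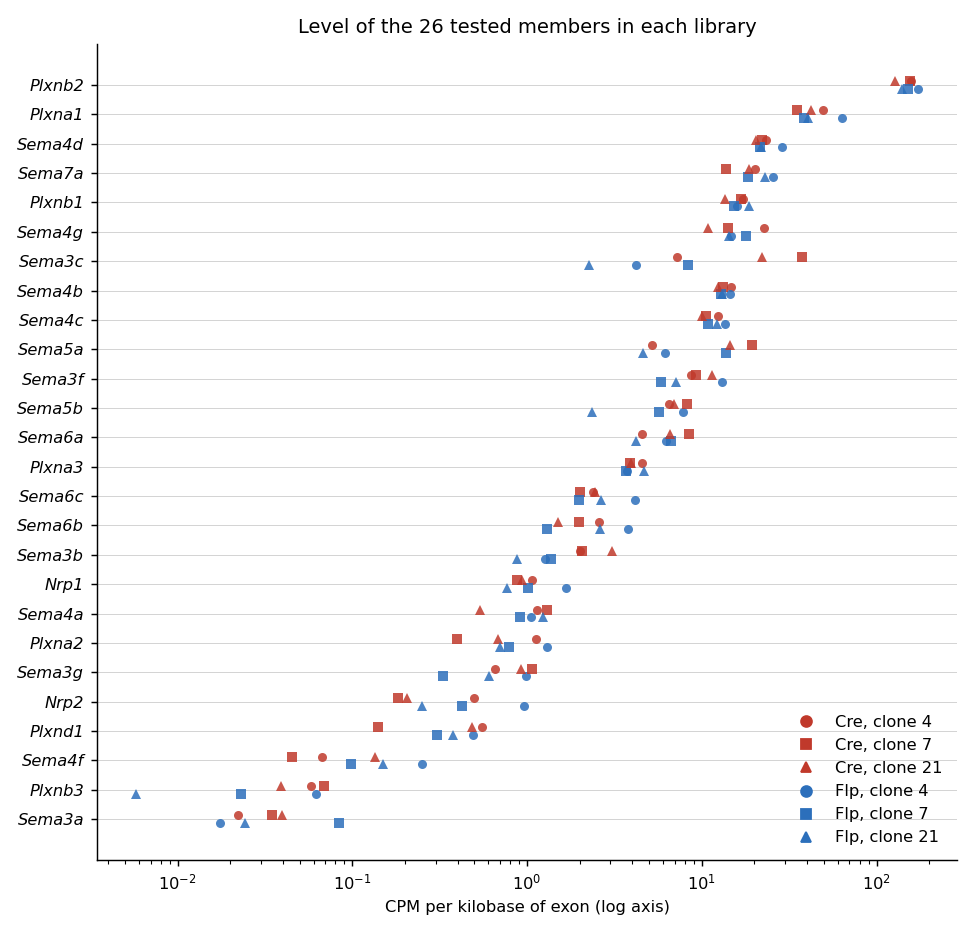
Level of the 26 members that passed the filter on low counts, in CPM per kilobase of exon on a log axis, with a point for each library (red Cre, blue Flp; circles, squares and triangles for clones 4, 7 and 21). Plxnb2 stands apart at the top, and Sema3c spreads the most among members above 1 CPM per kilobase, from 2.26 to 37.3.

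Among receptors the level was concentrated in few genes. Plxnb2 made up 67.2% to 73.4% of all plexin transcripts per kilobase in each library and Plxna1 16.5% to 24.5%. Plxnb1, the best known Sema4d receptor, made up 6.16% to 9.20%. Plxna3, which works with Nrp2 in axon guidance, had a mean of 32.1 CPM, and Plxna2, a receptor of Sema6a, a mean of 14.3 CPM. Plxnd1, the endothelial receptor of Sema3e, was low at 1.03 to 4.04 CPM. The neuropilins were also low, with Nrp1 at 7.54 to 16.3 CPM and Nrp2 at 2.16 to 11.3 CPM. Together they came to 1.02 to 2.62 CPM per kilobase, against 189 to 258 for the plexins and 113 to 165 for the semaphorins.

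Among ligands, class 4 semaphorins, membrane-bound proteins with an immunoglobulin-like domain, made up 37.3% to 55.6% of the semaphorin transcripts per kilobase. Within the class, Sema4d had a median share of 35.3%, Sema4g 22.9%, Sema4b 20.4% and Sema4c 17.8%, and Sema4a and Sema4f were minor. Class 5 (Sema5a and Sema5b, with thrombospondin repeats) made up 6.15% to 16.7% and class 6 (transmembrane ligands of A plexins) 7.11% to 9.72%. Sema7a alone made up 8.29% to 20.3%. Class 3, the secreted ligands, had the widest range, from 9.61% to 30.1%.

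A mean under 1 CPM was found for 8 members. Of these, Sema3a (0.242 to 1.17 CPM), Sema4f (0.240 to 1.33 CPM) and Plxnb3 (0.0375 to 0.445 CPM) passed the filter on low counts, and Sema3d, Sema3e, Sema6d, Plxna4 and Plxnc1 did not and were not tested. A count of 0 allows up to 3 reads, or 0.0632 to 0.121 CPM depending on the library, and these limits cover counting error only. Sema3e had 29 reads in Cre of clone 4 and 0 in Flp of that clone, at least 5.66-fold higher, but 5 reads in Cre and 21 in Flp of clone 7. Plxnc1, the receptor of Sema7a, had 0 to 4 reads per library, and Plxna4 had 0 to 3. Sema3d had up to 14 reads and Sema6d up to 12.

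The main comparison set Cre against Flp with clone as a block. With edgeR's quasi-likelihood test 0 of the 26 tested members passed an adjusted p of 0.05, as did 0 of 15355 genes (0%). Their adjusted p-values ran from 0.6065 to 0.9917. At an unadjusted p under 0.05 there were 4 members, Sema3c and Sema3b (higher in Cre) and Sema7a and Nrp2 (lower), beside 6.82% of all genes. The log2 fold change was positive for 9 members and negative for 17, with a median of -0.10 beside 0.0033 for all genes tested. The log2 ratio was above 0 in all 3 clones for 2 members (14.6% of all genes), Sema3c and Sema3b. It was below 0 in all 3 for 5 (13.1% of all genes), Sema4c, Sema4f, Sema7a, Plxna2 and Nrp2. These ratios exceeded their 95% counting error in every clone for Sema3c, Sema3b and Sema7a, but not for Sema4c, Sema4f, Plxna2 and Nrp2. In bulk cultures, a change in the share of cells that express a gene and a change of its RNA per cell cannot be told apart.

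**Figure D2:**
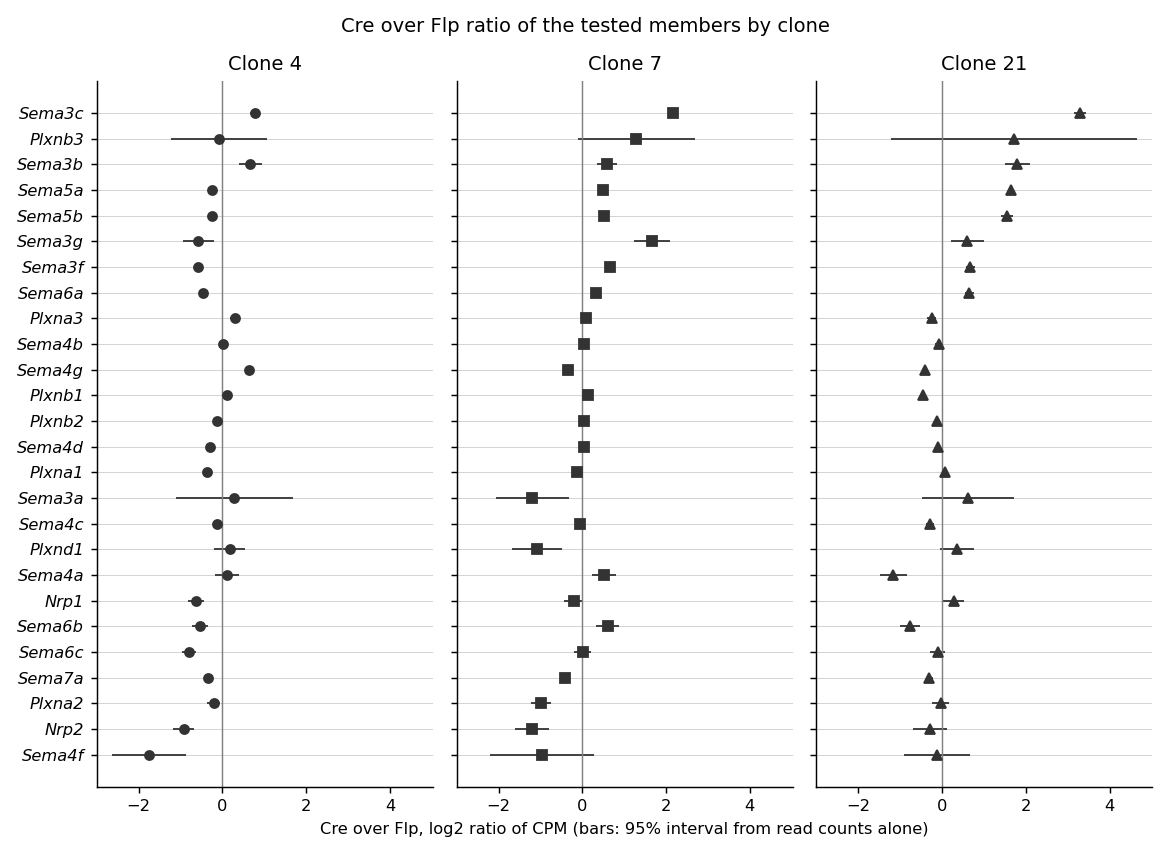
Cre over Flp log2 ratio of CPM for the 26 tested members in clones 4, 7 and 21, ordered by the fitted log2 fold change. Bars are 95% intervals from the read counts alone and do not include variation between cultures; 19 of the 26 members have ratios of both signs.

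Sema3c, a secreted ligand that signals through neuropilins with plexins D1 and A and is known for shaping the cardiac outflow tract, had the largest log2 fold change of the set. It stood at 51.4, 266 and 159 CPM in Cre of clones 4, 7 and 21 and at 30.03, 59.4 and 16.1 CPM in Flp. Cre was above Flp within every clone, although Cre of clone 4 lay below Flp of clone 7, so the groups overlapped. The ratio was 1.71-fold in clone 4, 4.48-fold in clone 7 and 9.84-fold in clone 21. The fitted log2 fold change was 2.08 (SE 0.47, edgeR adjusted p = 0.6065). Sema3c (ENSMUSG00000028780, chromosome 5, 17574281 to 17730268, GRCm38) was counted with 430 to 7765 reads per library, so counting error was small beside the spread between clones.

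The Sema3c ratio differed in size between clones, which a single pair of libraries per clone does not allow to be tested. A log2 ratio at least as high as that of Sema3c was found for 9.32% of tested genes in clone 4, 0.436% in clone 7 and 0.163% in clone 21. Without clone 4 the log2 fold change was 2.72 (edgeR adjusted p = 0.1723), without clone 7 it was 2.03 (0.8137) and without clone 21 it was 1.47 (0.99998). Among the alternatives run it passed the threshold only when edgeR tested genes of any count (adjusted p = 0.00012, 0.792% of genes called), and its adjusted p ranged from 0.00012 to 0.99998. With DESeq2 and the clone block the adjusted p was 0.0840, where 1.47% of genes and 0 members were called. DESeq2 with no replicate block called 0.0848% of genes and 0 members. The authors' deposited table lists Sema3c at a mean normalised count of 3141 and a log2 fold change of 0.58 with an adjusted p of 0.0977. DESeq2 with the clone block gave a log2 fold change of 2.08 here. The fold changes of the 2 sources are therefore not on a like scale, and the reason was not tested. The same holds for Sema3b and Nrp2 below.

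Sema3c was the largest class 3 member in Cre of clones 7 and 21 and in Flp of clone 7. Class 3 transcripts summed to 18.6, 49.7 and 37.7 CPM per kilobase in Cre of clones 4, 7 and 21 and to 19.5, 16.0 and 10.9 in Flp. The total was thus the larger on the Cre side in clones 7 and 21 and close to equal in clone 4. Sema3c made up 38.6%, 74.9% and 59.0% of it in Cre and 21.5%, 51.8% and 20.8% in Flp. Sema3f, a ligand of Nrp2, held most of the remainder.

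**Figure D3:**
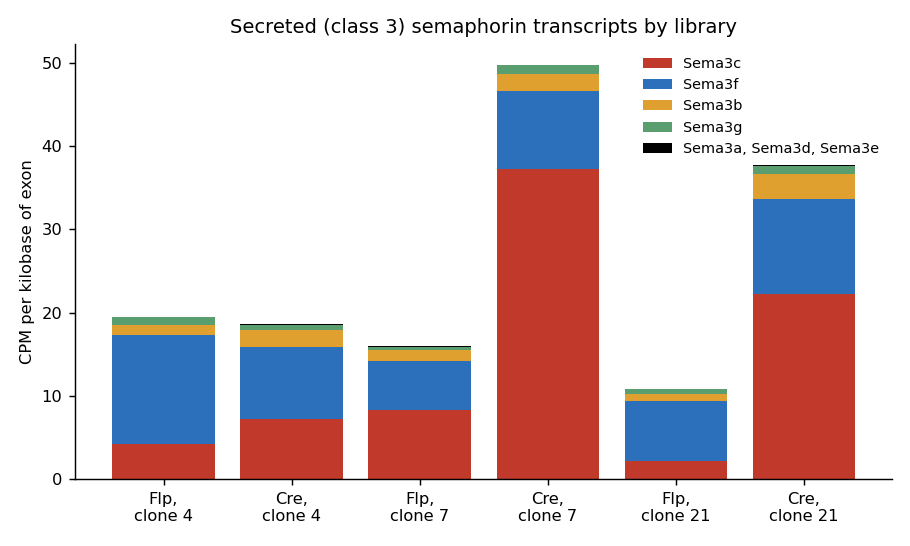
Stacked bars of class 3 semaphorin transcripts in CPM per kilobase of exon for each library, ordered by clone. Sema3c (red) is the largest part in Cre of clones 7 and 21, at 37.3 and 22.2, while Sema3f (blue) ranges only from 5.86 to 13.1.

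Sema3b, another secreted ligand of neuropilins, was the only tested member whose groups did not overlap (4.19% of all genes had Cre above Flp in this way, and 3.95% had Cre below Flp, as did 0 members). It stood at 9.62, 9.83 and 14.6 CPM in Cre of clones 4, 7 and 21 and at 6.05, 6.51 and 4.16 CPM in Flp. The fitted log2 fold change was 1.02 (SE 0.31, edgeR adjusted p = 0.6455), and 0.63 without clone 21. The authors' deposited table lists 0.61 for it with an adjusted p of 0.118. Sema3b lies 72.3 kb from Sema3f on chromosome 9 (107597674 to 107609229, GRCm38). In clones 4, 7 and 21 the log2 ratios were 0.66, 0.59 and 1.80 for Sema3b and -0.59, 0.66 and 0.68 for Sema3f. Their signs thus differed only in clone 4, and in clone 7 the ratios were close. Sema3f was at 45.0, 48.2 and 59.2 CPM in Cre of clones 4, 7 and 21 and at 67.9, 30.4 and 37.0 CPM in Flp, lower in Cre of clone 4 and higher in Cre of clones 7 and 21. Over 115 expressed neighbours of Sema3b within 5 Mb the median log2 ratio was -0.05, 0.03 and -0.03 in these clones.

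Sema3g, a secreted ligand of Nrp2, lies on chromosome 14 (31217860 to 31230352, GRCm38) among genes whose ratios were mostly above 0 in clones 7 and 21. It stood at 2.98, 4.83 and 4.19 CPM in Cre of clones 4, 7 and 21 and at 4.48, 1.49 and 2.74 CPM in Flp. Its log2 ratios were -0.58, 1.66 and 0.60. Those of its 48 expressed neighbours within 5 Mb had medians of 0.17, 0.61 and 0.87. Against these medians Sema3g was lower in clone 4 by a log2 difference of -0.75, higher in clone 7 by 1.05 and lower in clone 21 by -0.27. In clone 7 no neighbour reached its ratio, and in clone 4 all 48 were above it. The departure in clone 7 was on the Flp side, where Sema3g stood at -1.21 against its median over the 6 libraries while its neighbours stood at 0.028. With 60 to 199 reads per library Sema3g was counted less precisely than Sema3c. The part of the neighbourhood in the Sema3g ratios was not tested.

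**Figure D4:**
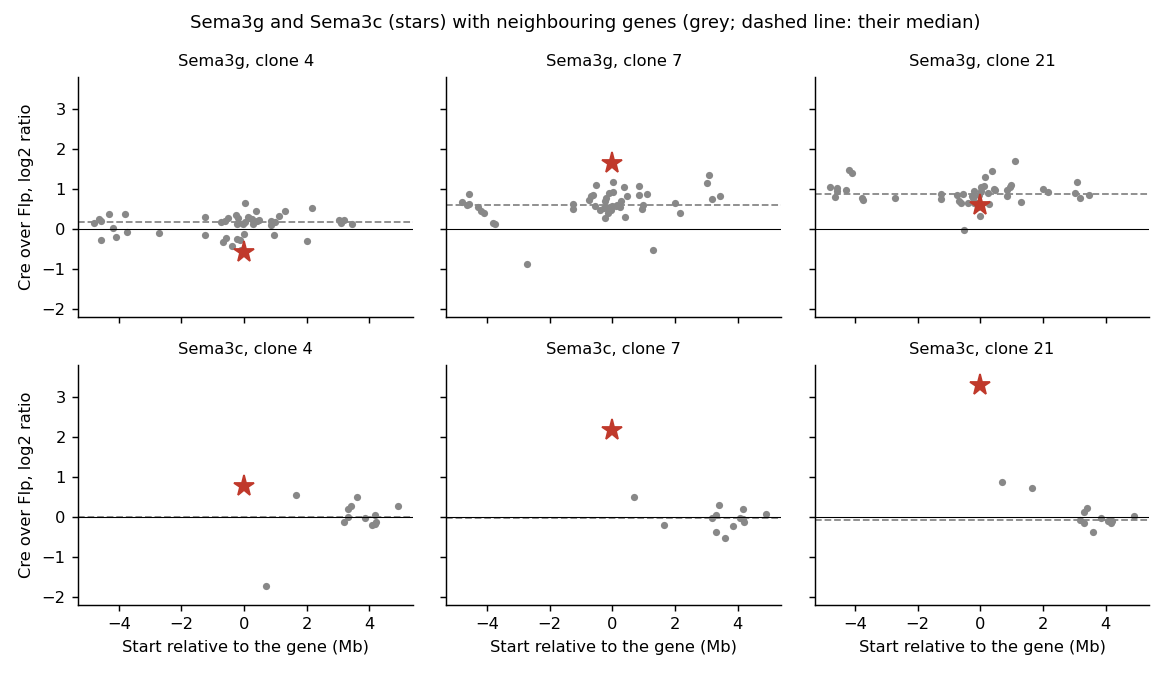
Cre over Flp log2 ratio of Sema3g and Sema3c (stars) and of genes within 5 Mb with a mean of at least 5 CPM (grey points, dashed median) against the distance between gene starts. The 48 neighbours of Sema3g have medians of 0.61 and 0.87 in clones 7 and 21, while the 13 neighbours of Sema3c have medians from -0.09 to -0.0010.

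Within 5 Mb of Sema3c no such shift was seen in the median log2 ratios of its 13 expressed neighbours. These were -0.0010, -0.03 and -0.09 in clones 4, 7 and 21. None of the neighbours reached the ratio of Sema3c in any clone. All 13 started at higher coordinates, 0.69 to 4.91 Mb away, so the other side was not covered. Only 2 of them, Gnai1 and Magi2, lay within 2 Mb, with medians of -0.58, 0.15 and 0.79. Gnai1 had log2 ratios of -1.72, 0.51 and 0.88 and Magi2 of 0.56, -0.20 and 0.71. A shift closer to Sema3c was not tested. Sema3d, Sema3a and Sema3e, which also lie on chromosome 5, were at or under 1.17 CPM in every library. Sema3a, the classical collapse factor for growth cones, had log2 ratios of 0.28, -1.19 and 0.62 in clones 4, 7 and 21.

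Sema5a and Sema5b, transmembrane ligands with thrombospondin repeats, shared a pattern across clones although they lie on chromosomes 15 and 16. Sema5a stood at 97.3, 363 and 270 CPM in Cre of clones 4, 7 and 21 and at 115, 258 and 86.3 CPM in Flp. Sema5b stood at 46.2, 57.9 and 48.8 CPM in Cre and at 54.9, 40.5 and 16.6 CPM in Flp. For both, Cre was lower in clone 4, moderately higher in clone 7 and furthest above Flp in clone 21. The log2 ratios were -0.25, 0.49 and 1.64 for Sema5a and -0.25, 0.52 and 1.55 for Sema5b. The fitted log2 fold changes were 0.63 (SE 0.35) and 0.60 (SE 0.34), with edgeR adjusted p-values of 0.8357 and 0.8404. Without clone 21 they were 0.12 and 0.13, and without clone 4 they were 1.07 and 1.03. Sema6a, a ligand of A plexins, had log2 ratios of -0.46, 0.34 and 0.65, the same signs in the same clones. Sema3f, Sema3g and Plxnb3 also had these signs, and the share of all genes with them was not determined. Plxnb3 had at most 16 reads per library and only 1 in Flp of clone 21. Its ratio was within counting error in each clone. In Flp of clone 21, Sema3b, Sema3c, Sema5a, Sema5b, Sema6a, Plxnb3 and Nrp1 each had their lowest level of the 6 libraries. The share of all genes with their lowest level in that library was not determined, so this only describes these members.

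**Figure D5:**
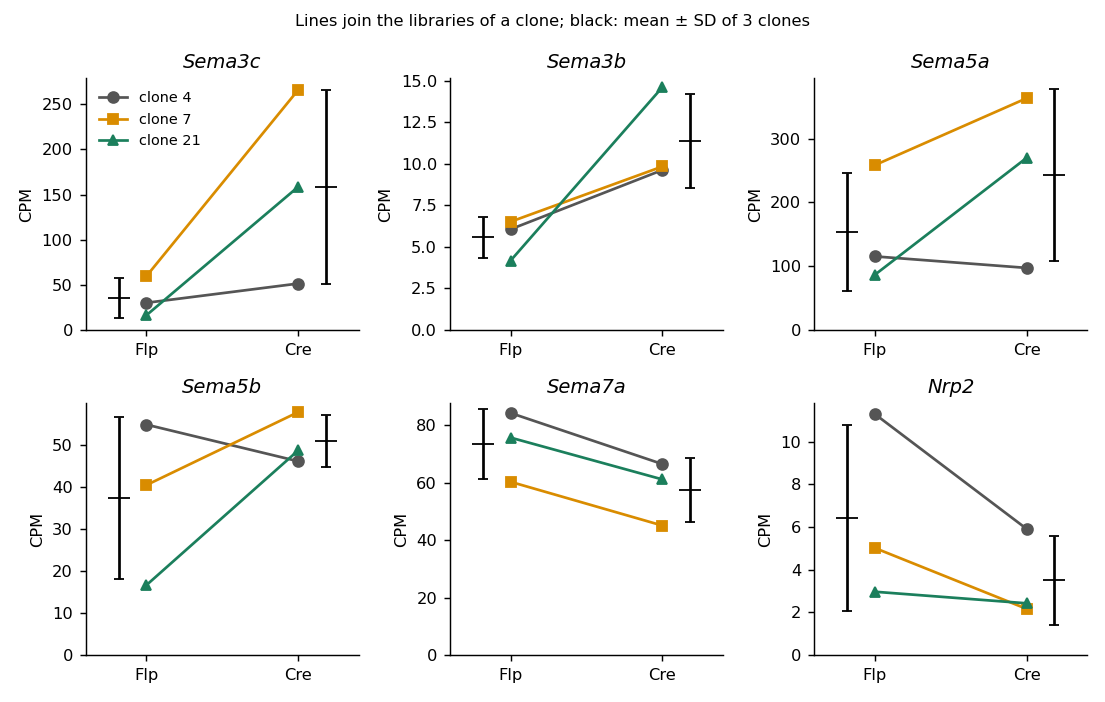
CPM of 6 members in Flp and Cre, with a line for each clone and black marks for the mean ± SD of 3 clones; each vertical axis starts at 0. Sema3c and Sema3b are higher and Sema7a and Nrp2 lower in Cre of every clone, for Nrp2 in clone 21 within counting error. Sema5a and Sema5b are lower in Cre of clone 4 and higher in Cre of clones 7 and 21.

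Class 4 semaphorins had negative log2 fold changes in all 6 genes, from -1.03 for Sema4f to -0.01 for Sema4b, with a median of -0.14. However, Sema4b was positive with library totals only and Sema4g with no replicate block. Without clone 21 the fold changes of Sema4a, Sema4b and Sema4g were also positive, at 0.32, 0.026 and 0.14. Sema4d stood at 179, 170 and 157 CPM in Cre of clones 4, 7 and 21 and at 220, 166 and 168 CPM in Flp, a log2 fold change of -0.12 (SE 0.11). Sema4b and Sema4c, whose levels spanned only 1.19-fold and 1.35-fold over the 6 libraries, were among the steadiest members. Sema4g differed by clone, at 196 CPM in Cre and 127 in Flp of clone 4 but at 123 and 155 in clone 7 and 94.4 and 125 in clone 21. Sema4a, a ligand also known from immune cells, stood in clone 21 at 2.93 CPM with Cre against 6.64 CPM with Flp, and in clones 4 and 7 the Cre value was the higher. Sema4f had only 7 to 34 reads per library, and its log2 fold change ran from -1.54 to -0.56 when a clone was left out.

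Sema7a and Nrp2 were lower in Cre of every clone, although the difference of Nrp2 in clone 21 was within counting error. Sema7a, which acts through Plxnc1 and integrins with the beta-1 chain Itgb1, stood at 66.5, 45.1 and 61.2 CPM in Cre of clones 4, 7 and 21 and at 84.3, 60.4 and 75.8 CPM in Flp. Its ratio was nearly the same in each clone, 1.27-fold, 1.34-fold and 1.24-fold lower in Cre. The groups overlapped, since Flp of clone 7 lay below Cre of clones 4 and 21. The log2 fold change was -0.36 (SE 0.10, edgeR adjusted p = 0.6349), and the authors' deposited table lists -0.32 with an adjusted p of 0.321. With Plxnc1 at or near 0, integrin subunits were detected at higher levels, with means of 1255 CPM for Itgb1, 249.9 CPM for Itga1 and 436 CPM for Itgav.

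Nrp2 stood at 5.91, 2.16 and 2.42 CPM in Cre of clones 4, 7 and 21 and at 11.3, 5.02 and 2.96 CPM in Flp. Clone 4 was the highest clone in each group, and Cre of clone 4 lay above Flp of the other clones. The log2 fold change was -0.82 (SE 0.29, edgeR adjusted p = 0.6864), and the authors' deposited table lists -0.48 with an adjusted p of 0.383. Nrp1 stood at 10.5, 8.60 and 9.12 CPM in Cre and at 16.3, 9.91 and 7.54 CPM in Flp, with log2 ratios of -0.63, -0.20 and 0.27. Nrp1 was thus lower in Cre of clones 4 and 7 and higher in Cre of clone 21.

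The stretches before the RefSeq starts (GRCm38.p6, plus strand) are shown for Sema5a, Sema7a and Nrp2, a ligand with a clone-dependent ratio and the ligand and co-receptor that were lower in every clone, to set their sequence beside these values. They end before the first annotated exon, and capitals mark the GC box letters GGGCGG on either strand, with longer capital runs where copies overlap.
Sema5a, chr15:32244563-32244809: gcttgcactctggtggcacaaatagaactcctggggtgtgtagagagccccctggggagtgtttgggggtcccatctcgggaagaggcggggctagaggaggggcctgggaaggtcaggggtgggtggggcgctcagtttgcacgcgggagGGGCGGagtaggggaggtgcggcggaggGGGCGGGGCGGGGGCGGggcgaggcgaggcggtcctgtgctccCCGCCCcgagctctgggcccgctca
Sema7a, chr9:57939862-57940111: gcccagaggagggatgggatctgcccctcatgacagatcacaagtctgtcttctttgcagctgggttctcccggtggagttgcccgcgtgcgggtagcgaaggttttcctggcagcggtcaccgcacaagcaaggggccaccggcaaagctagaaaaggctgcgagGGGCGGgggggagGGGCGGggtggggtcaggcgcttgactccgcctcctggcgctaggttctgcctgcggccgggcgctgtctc
Nrp2, chr1:62703067-62703284: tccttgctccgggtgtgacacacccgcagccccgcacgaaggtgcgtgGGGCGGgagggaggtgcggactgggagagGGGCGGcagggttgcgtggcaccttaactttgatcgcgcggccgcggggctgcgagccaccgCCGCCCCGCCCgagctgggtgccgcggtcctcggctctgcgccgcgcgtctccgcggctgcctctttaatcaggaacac
The motif occurred 5 times in the Sema5a stretch, 2 times in that of Sema7a and 4 times in that of Nrp2. Of 26 members matched in the RefSeq table, 20 (76.9%) hold it in the 250 bases before the start, against 32.7% of all 32851 starts listed there. These matches describe the letters only and were not tested against the levels.

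The 7 tested plexins had a median log2 fold change of -0.07. Plxnb2 stood at 1216, 1202 and 986 CPM in Cre of clones 4, 7 and 21 and at 1339, 1170 and 1072 CPM in Flp, a log2 fold change of -0.07 (SE 0.11). Plxna1 stood at 447, 318 and 381 CPM in Cre and at 573, 350 and 365 CPM in Flp, a log2 fold change of -0.15 (SE 0.12). Exons of Plxna1 share 10.7% of their bases with the antisense gene Gm26811, and those of Sema4c share 7.27% with an antisense transcript, so their counts are less certain. Plxnb1 and Plxna3 had log2 fold changes of -0.07 and 0.04. Plxna2 was lower in Cre of each clone, by log2 ratios of -0.21, -0.98 and -0.04, with 6.85 CPM in Cre and 13.6 CPM in Flp of clone 7. Plxnd1 had 1.03 CPM in Cre and 2.24 CPM in Flp of clone 7, while in clones 4 and 21 Cre was the higher.

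The next comparison asked how the members differed between clones whichever recombinase was used. In edgeR's test of the clone term 0 of 26 members passed an adjusted p of 0.05, beside 1 of 15355 genes (0.00651%). At an unadjusted p under 0.05 there were 5, Nrp2, Plxna1, Sema7a, Plxna2 and Sema5a, beside 8% of all genes. Nrp2, Plxna1, Sema7a and Plxna2 were highest in clone 4. Their clone means were 8.61 CPM in clone 4, 3.59 in clone 7 and 2.69 in clone 21 for Nrp2, and 20.9, 10.2 and 11.8 CPM for Plxna2. Sema5a was highest in clone 7, at a mean of 311 CPM against 106 in clone 4 and 178 in clone 21, and Sema3c followed the same order at 163, 40.7 and 87.4 CPM. The adjusted p of these 6 clone differences in edgeR ran from 0.4486 for Nrp2 to 0.6490 for Sema3c. With genes of any count tested, edgeR called 3 of 31 members for the clone term, Nrp2, Sema3c and Sema5a, beside 1.83% of genes.

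Within single clones, log2 ratios of at least 0.5 in either direction were held by 10 of the 26 tested members in clone 4, 13 in clone 7 and 11 in clone 21, beside 24.6%, 28.5% and 26.4% of all tested genes. A set of 5 members had a ratio of at least 0.5 in one clone and at most -0.5 in another, Sema3a, Sema3f, Sema3g, Sema4a and Sema6b, beside 11.7% of all tested genes. Sema6b stood at 10.3, 7.85 and 6.0 CPM in Cre of clones 4, 7 and 21 and at 15.0, 5.14 and 10.3 CPM in Flp. Sema6c, another transmembrane ligand, stood in clone 4 at 14.1 CPM with Cre against 24.5 CPM with Flp and differed little in clones 7 and 21, with log2 ratios of 0.01 and -0.10.

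Partners of the system were taken from 4 lists: co-receptors, other ligands of neuropilins, effectors of plexins and proteases that process semaphorins or neighbouring matrix. In the main edgeR fit 0 of their tested genes passed an adjusted p of 0.05. DESeq2 with the clone block called 1 each in the first 3 lists, Flt1, Pgf and Rhof, beside 1.47% of all genes. With genes of any count tested, edgeR called 1 in each of the 4 lists, Flt1, Pgf, Rhof and Adamts1, beside 0.792% of genes. Of 20 co-receptors 14 were tested, 7 positive and 7 negative, with a median log2 fold change of 0.02. Kdr, the main signalling receptor that Nrp1 assists in endothelium, was at 0 in every library. Flt1, a decoy receptor for the same growth factors, had the smallest p of the list, averaging 138 ± 70.4 CPM over the Cre libraries against 41.2 ± 23.8 CPM for Flp (SD, 3 clones). The log2 ratios were 1.74, 1.55 and 2.01, and the fitted log2 fold change was 1.77 (SE 0.13), with an adjusted p of 0.2012 in edgeR and 4.4e-22 in DESeq2. For the 66 genes around it the median ratio was 0.84, 0.02 and -0.0023 in clones 4, 7 and 21.

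Of 10 other neuropilin ligands 8 were tested, with a median of -0.07, and Vegfa, the best known of them, was at a mean of 381 CPM with a log2 fold change of -0.05. Pgf, placental growth factor, which binds Flt1 and Nrp1, had the smallest p of that list, at 54.3, 10.96 and 28.1 CPM in Cre of clones 4, 7 and 21 and at 98.1, 51.8 and 87.9 CPM in Flp. Its log2 fold change was -1.57 (SE 0.27, edgeR adjusted p = 0.6065), with an adjusted p of 4.6e-06 by DESeq2 with the clone block. Of 40 effectors 38 were tested, 18 positive and 20 negative, with a median of -0.01 and 7 at an unadjusted p under 0.05, beside 6.82% of all genes. Rhof, a small GTPase of filopodia, had the smallest p, with a log2 fold change of 1.22 (SE 0.21, edgeR adjusted p = 0.6065), though 12.8% of its exon bases are shared with antisense genes. Rnd1, a GTPase that binds plexins directly, had log2 ratios of 0.81, 0.85 and 0.53. Those of Rras, whose activity plexins lower, were -0.54, -0.10 and -0.39. These 2 were chosen after their values were seen, and related effectors in the list did not follow them. The log2 fold change was -0.015 for Rnd2, 0.08 for Rnd3, 0.20 for Rras2 and -0.02 for Mras. Of 8 proteases 7 were tested, with a median of 0.15. Adamts1 had the smallest p at a log2 fold change of 0.63 and clone ratios of 0.06, 1.01 and 0.81. Furin, which cleaves class 3 semaphorins, stood at a mean of 401 CPM with a log2 fold change of -0.19.

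In the authors' deposited table, 0 of the 25 members with an adjusted p were under 0.05, beside 1.37% of the genes listed with one. The signs of all 26 members tested here matched those of the authors' deposited table, read as Cre over Flp. Both come from the same libraries, so this compares processing and methods only. Over the tested members, the deposited mean count ran from 0.78 (Sema3f) to 1.43 (Nrp1) times the mean here. The 2 sources therefore do not rest on the same counts for every member.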

How the data were processed

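Total RNA of 6 iREC cultures was sequenced. The submitters' processing notes name the builds GRCm38 and mm10 and, without their roles, STAR (2.5.2b-2), Trim Galore (0.4.3.0), DESeq2 (2.11.40.1), FastQC (0.67) and featureCounts (1.6.0.3). For annotation release and strand setting the sources used here give nothing. The authors deposited raw counts for 49671 Ensembl genes per library. Per the file headers, the authors' deposited comparison table holds a mean normalised count (a signal), a log2 fold change, its standard error and a test score, and p-values with adjusted p-values.

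GENCODE M21 (GRCm38) matched 49412 identifiers and gave coordinates and exon lengths; 259 had no match. The main test was that of edgeR 4.0.16 under R 4.3.3 (filterByExpr, TMM, quasi-likelihood test, clone as block, 2 residual degrees of freedom, Benjamini-Hochberg over 15355 genes, threshold 0.05), with DESeq2 1.42.0 and limma 3.58.1 as alternatives. Standard errors come from the F statistic. CPM uses TMM-scaled totals, log2 ratios a prior count of 2, and neighbours a window of 5 Mb and a mean of at least 5 CPM. The series' design pairs the cultures of a clone; the correlation of deviations from the group mean was 0.20 in clone 4, 0.11 in clone 7 and 0.30 in clone 21. Fits were tested on simulated data. Members and lists were chosen with earlier results of these data known. All 31 members are named, with Pkd1 and, from each partner list, the gene with the smallest p among those of one direction in all 3 clones. Other partner genes named here, such as Kdr, Vegfa, Furin, the integrin subunits, Rnd1, Rras and their relatives, were not picked by this rule. Alternatives changed the block, test, normalization, filter, clones, prior count, gene length and window. Figures used matplotlib 3.10.9.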

Additional observations from a re-analysis of the deposited data

Results flagged for a closer look

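In 4 members with a mean of at least 1 CPM the Cre over Flp log2 ratio was at least 0.5 in one clone and at most -0.5 in another. With a single pair of libraries per clone the difference between clones was not tested. Sema3f stood at 0.68 in clone 21 and -0.59 in clone 4. Sema3g stood at 1.66 in clone 7 and -0.58 in clone 4. Sema4a stood at 0.52 in clone 7 and -1.17 in clone 21. Sema6b stood at 0.60 in clone 7 and -0.78 in clone 21.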

How the results depend on the processing

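With edgeR and the clone block 0 genes and 0 members passed for Cre against Flp. The number of genes was 195 with DESeq2 and the block, 13 with DESeq2 and no replicate block and 224 when edgeR tested genes of any count, the setting that also called 1 member, Sema3c. For the clone term, 1 gene and 0 members passed; this became 0 genes with limma-voom and with a minimum of 1 CPM in 3 libraries, and 519 genes and 3 members with genes of any count. The cause of these shifts was not tested. In edgeR with no replicate block, 0 genes and 0 members passed, and the log2 fold change was 2.17 for Sema3c (adjusted p = 0.9803). Of 231 member fold changes under alternatives that kept all clones, 224 kept their sign and side of the threshold, 1 passed it and 6 changed sign: Sema4b at 0.011 with library totals only and 0.00072 without a filter, Sema4g at 0.021 in edgeR and 0.019 in DESeq2 with no replicate block, and Plxnd1 at 0.013 and 0.012 in the same fits. Leaving out a clone changed the sign of 11 of 77 values in 10 members: the log2 fold change ranged from -0.56 to 0.53 for Sema3a, -0.53 to 0.32 for Sema4a, -0.033 to 0.026 for Sema4b, -0.37 to 0.14 for Sema4g, -0.061 to 0.49 for Sema6a, -0.66 to 0.025 for Sema6b, -0.085 to 0.19 for Plxna3, -0.17 to 0.12 for Plxnb1, -0.45 to 0.27 for Plxnd1 and -0.42 to 0.033 for Nrp1. A prior count of 0.5 moved 0 of 78 clone ratios beyond counting error. That error is widest at low counts, where a prior count matters most, so this comparison could hardly show a shift. The longest transcript in place of all exons moved 16 of 31 levels per kilobase beyond their SD, and a window of 2 Mb moved 30 of 84 neighbourhood medians beyond theirs. Depth limits what can be said of members under 1 CPM.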
